A study of Homo sapiens with 6 samples.

Results

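The 44 genes described here encode the proteins that license replication origins, unwind DNA at them and carry the replication fork, measured in LNCaP cells, a human prostate cancer line that responds to androgen. They were named by function from a list, and each was read from the brightest probe set that the platform annotation pairs with that gene alone, so that 44 of 19775 measured genes are members and none was unmeasured. The cells had received siPCARNEQ, a small interfering RNA against the non-coding RNA PCARNEQ, or siEGFP, directed at a jellyfish-derived fluorescent protein as a control, and each group was measured on 3 Affymetrix arrays, called siPCARNEQ arrays 1 to 3 and siEGFP arrays 1 to 3. No other agent, genotype or time is given for either group, both groups come from a single cell line, and the labels name no separate cultures, so the p-values reflect array-to-array spread alone and that spread may be technical. The level of PCARNEQ itself was not analysed here.

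An origin is marked by the origin recognition complex (ORC), on which CDC6 and CDT1 load the MCM2-7 ring as an inactive helicase before S phase, a step called licensing that geminin (GMNN) blocks once S phase has begun. The kinase CDC7 with its partner DBF4, together with cyclin-dependent kinases, then turns the loaded rings into active helicases by recruiting CDC45 and the GINS complex, after which polymerases, the PCNA clamp and its RFC loader copy the strands. Transcription of many of these genes is known to rise before S phase through E2F factors, so their RNA is low in cells that do not cycle. In a bulk RNA sample, fewer cycling cells and less RNA per cycling cell cannot be told apart.

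Because many members are textbook E2F targets, the region around the transcription start was read for 39 members from RefSeq promoters (build GRCh38.p14, 250 bases before to 50 after the start). The searched E2F-type letters were TTTCGCGC or TTTGGCGC or TTTCCCGC or TTTGCCGC, on both strands, with overlapping matches counted. They occurred in 19 of the 39 promoters (48.7%), against 13.2% of 53 promoters of other replication genes and 3.33% of all 27305 promoters. On both strands, CCAAT occurred in 22 of the 39 (56.4%), in 49.1% of the promoters of other replication genes and in 35.7% of all promoters. The cell cycle homology letters, which are TTTGAA with the variant TTCGAA, occurred in 2 members (5.13%), in 13.2% of other replication genes and in 16.6% of all. The promoters of the 3 members with the largest fall are shown with that of POLA1, the member whose change lay nearest 0. Capitals mark the E2F-type letters, and CCAAT read on the opposite strand. The GINS1 window lies at chr20:25407423-25407722, plus strand, the MCM6 window at chr2:135876394-135876693, minus strand, the GMNN window at chr6:24774687-24774986, plus strand and the POLA1 window at chrX:24693668-24693967, plus strand, each within GRCh38.p14 and read 5′ to 3′ along the gene.

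GINS1: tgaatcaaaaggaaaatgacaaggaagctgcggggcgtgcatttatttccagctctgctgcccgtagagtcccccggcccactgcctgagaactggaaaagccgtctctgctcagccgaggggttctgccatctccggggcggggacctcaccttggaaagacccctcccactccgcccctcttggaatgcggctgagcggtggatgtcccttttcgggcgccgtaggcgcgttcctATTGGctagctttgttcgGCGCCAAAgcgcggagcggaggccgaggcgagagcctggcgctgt
MCM6: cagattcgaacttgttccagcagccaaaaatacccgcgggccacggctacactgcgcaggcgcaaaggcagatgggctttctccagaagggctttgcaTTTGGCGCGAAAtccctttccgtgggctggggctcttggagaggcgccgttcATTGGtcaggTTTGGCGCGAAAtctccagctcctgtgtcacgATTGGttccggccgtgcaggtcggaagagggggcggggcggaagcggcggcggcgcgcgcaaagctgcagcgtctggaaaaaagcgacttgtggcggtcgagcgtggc
GMNN: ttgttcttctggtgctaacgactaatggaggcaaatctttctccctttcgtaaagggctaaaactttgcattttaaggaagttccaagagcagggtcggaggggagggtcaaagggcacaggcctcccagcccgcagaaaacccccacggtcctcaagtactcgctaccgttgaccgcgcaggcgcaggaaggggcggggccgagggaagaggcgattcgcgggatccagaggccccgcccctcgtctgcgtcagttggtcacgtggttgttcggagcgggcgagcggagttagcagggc
POLA1: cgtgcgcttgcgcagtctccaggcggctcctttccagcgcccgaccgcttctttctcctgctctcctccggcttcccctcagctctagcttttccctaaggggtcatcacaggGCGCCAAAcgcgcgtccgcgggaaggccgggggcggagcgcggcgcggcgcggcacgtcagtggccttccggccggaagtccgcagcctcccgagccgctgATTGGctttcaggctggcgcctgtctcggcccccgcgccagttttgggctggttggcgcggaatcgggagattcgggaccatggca

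The MCM6 window holds 4 E2F-type matches in 2 stretches, in each of which TTTGGCGC overlaps GCGCGAAA, which is TTTCGCGC on the opposite strand. The GMNN window holds neither motif, although GMNN was among the members with the largest fall, and the POLA1 window holds 1 E2F-type match. E2F-type letters were present in 16 of 32 members that fell and in 3 of 7 that did not pass, and CCAAT in 17 of 32 and 5 of 7. A match shows only that the letters are there.

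The signal is log2 of the deposited intensity, where a difference of 1 is a 2-fold difference in intensity. Across the array set the median intensity was 130.8 (7.03 on the log2 scale), and the arrays share 1 distribution because of their normalization. Array 1 stood apart from arrays 2 and 3 in both groups: the SD of the log2 difference over probe sets was 0.37 for siPCARNEQ array 1 against either of its partners, against 0.14 between siPCARNEQ arrays 2 and 3, and 0.23 to 0.24 against 0.13 in siEGFP. The ACTB control probe sets, read for RNA integrity, had a 3′ minus 5′ difference of 1.84 in siPCARNEQ array 1, of 0.69 and 0.68 in the other siPCARNEQ arrays, and 0.63 to 0.78 in siEGFP arrays (2-sided exact permutation p = 0.5, smallest possible 0.1). For the GAPDH control probe sets the same difference was 0.26 in siPCARNEQ array 1, -0.09 and -0.14 in the other siPCARNEQ arrays, and -0.07 to -0.03 in siEGFP arrays. Because arrays 2 and 3 may be less independent than their number implies, counts are also given with these 2 arrays of each group averaged into 1. Of 8 measured luminal prostate markers from a list of 10, KLK3, KLK2, TMPRSS2, HOXB13, KRT8 and KRT18 lay above 10 on the log2 scale on all arrays.

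The members fell together. Of the 44, 37 fell and 0 rose (limma, adjusted p below 0.05 over all genes), while 12.3% of all genes fell and 15.2% rose. At an unadjusted p below 0.05, 38 were lower and 1 higher, against 17.6% and 20.1% of all genes. The 37 are 84.1% of the members. The median change of the members was -0.71 on the log2 scale, against -0.01 for all genes. At least a 2-fold fall was reached by 11 members, and by 2.14% of all genes. The siPCARNEQ arrays lay wholly below the siEGFP arrays in 38 members and wholly above in 1, compared with 21.7% and 22.3% of all genes. With arrays 2 and 3 averaged, 16 members passed as lower and 0 as higher, against 5.26% and 6.05% of all genes. With the array set (array 1 or the average of arrays 2 and 3) also fitted as a block, 37 passed as lower and 1 as higher. Among all genes 11.4% and 14.7% did so. With arrays 2 and 3 alone, 40 passed as lower and 1 as higher, against 18.8% and 22.8% of all genes. That setting uses only the arrays that may be less independent, so its p-values may be too small. The 16 of the averaged fit without the block were ORC2, ORC6, MCM2, MCM6, MCM10, GINS1, GINS3, CDC6, CDT1, GMNN, TIPIN, WDHD1, POLE2, RFC3, RFC4 and RFC5. By role they were 2 ORC subunits, 2 subunits of the MCM2-7 ring, 1 other MCM protein, 2 of CDC45 and GINS, 3 loading factors with their inhibitor, 0 firing factors, 2 fork and checkpoint factors, 1 polymerase gene and 3 clamp loader genes. The other called members named in what follows therefore lost their call with arrays 2 and 3 averaged and no block, with their direction kept.

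**Figure D1:**
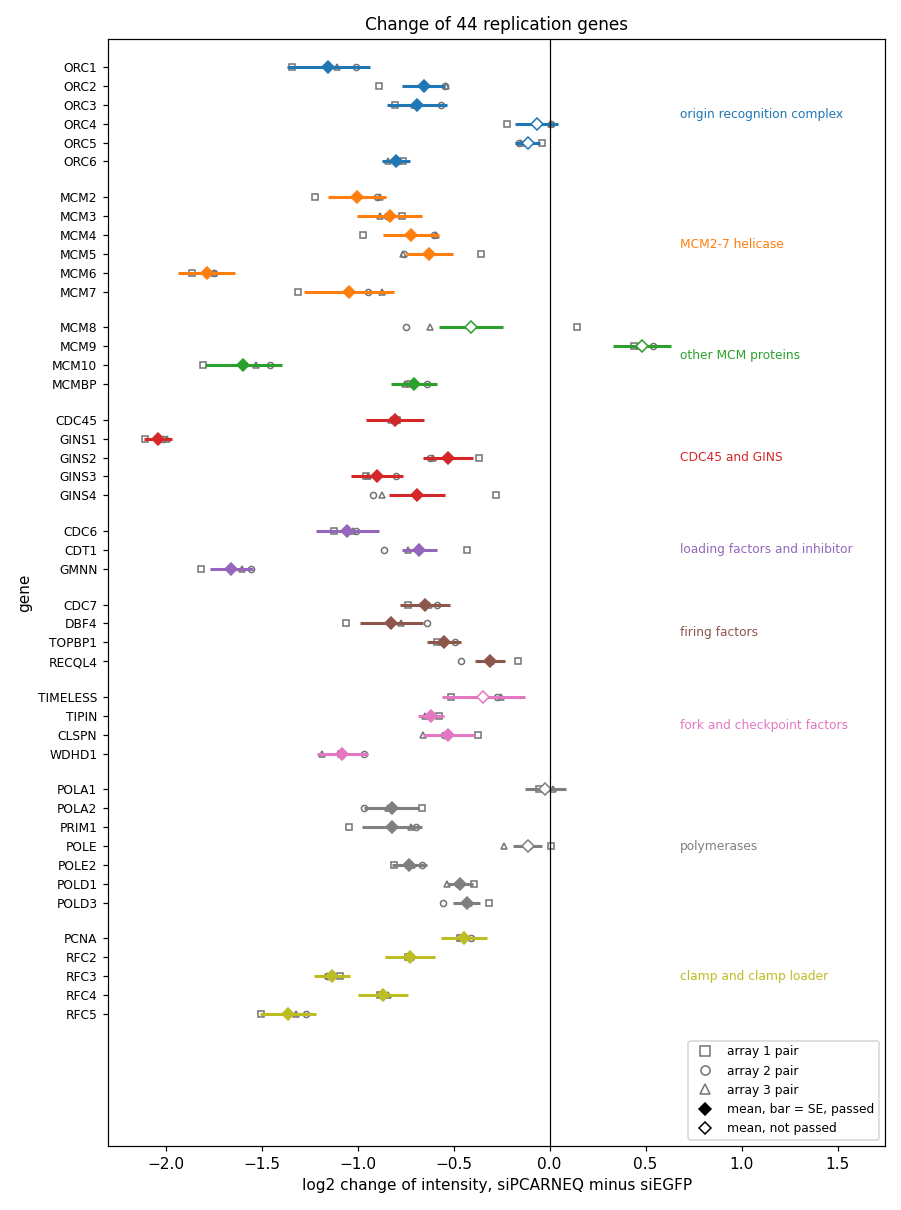
Log2 change of intensity, siPCARNEQ minus siEGFP, for the 44 genes by role (3 arrays per group). Diamonds are the means with their SE, filled where the gene passed at an adjusted p below 0.05, and grey open symbols are the differences between arrays of the same replicate number. GINS1 (-2.04) and MCM6 (-1.79) lie farthest left, and MCM9 (0.48) is the member farthest right.

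**Figure D2:**
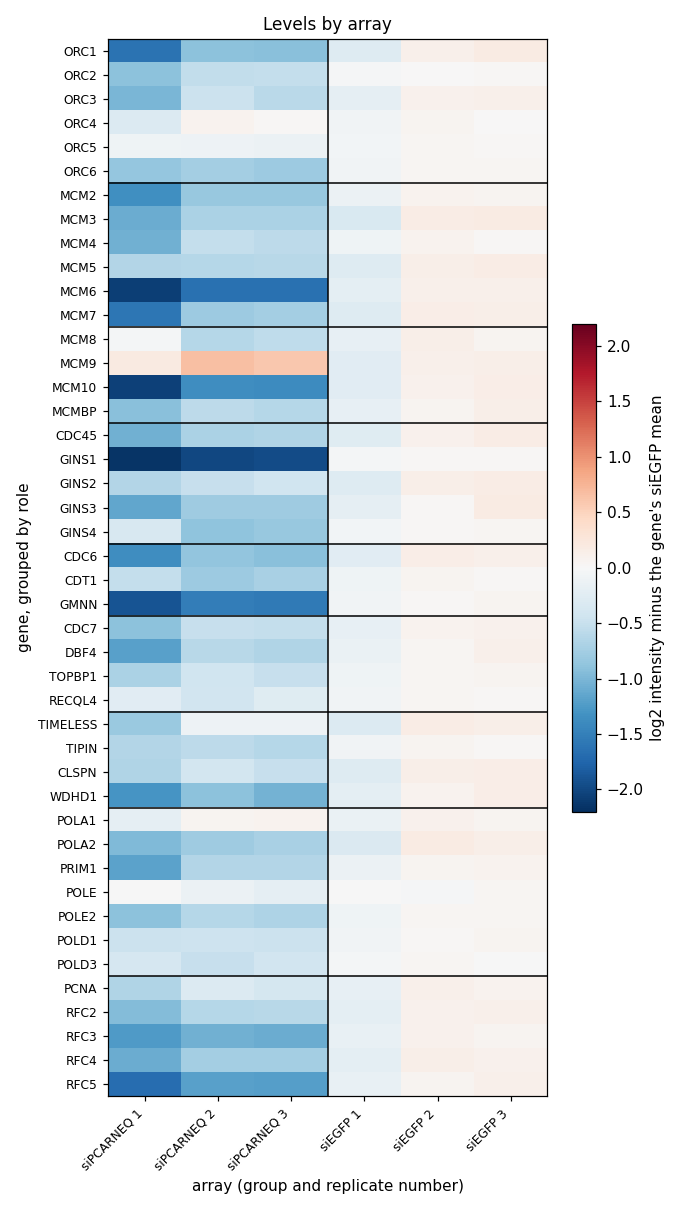
Log2 intensity of each gene on each array minus the mean of its siEGFP arrays, with siPCARNEQ arrays left of the line. Most rows are blue (lower) in all 3 siPCARNEQ arrays, deepest in array 1, while ORC4, ORC5, POLA1 and POLE are pale and MCM9 is red.

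Of the origin recognition complex, which binds origins and serves as the platform for loading, 4 of 6 subunits fell. ORC1, the subunit whose level rises in G1 in cycling cells, had 7.28, 8.01 and 7.99 in siPCARNEQ arrays 1 to 3, against 8.62, 9.02 and 9.10 in siEGFP arrays. The groups did not overlap, and ORC1 fell by 1.15 (SE 0.22, adjusted p = 0.00701). ORC6, which helps the complex recruit MCM rings, had 10.61, 10.71 and 10.67 in siPCARNEQ, against 11.38, 11.50 and 11.51 in siEGFP, and fell by 0.80 (SE 0.07, adjusted p = 0.000308). ORC2 and ORC3, core subunits, fell by 0.66 (SE 0.11) and 0.69 (SE 0.16). ORC3 did not pass without siEGFP array 2 or 3 (adjusted p = 0.0621 and 0.0614).

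The core subunits ORC4 and ORC5 did not pass. ORC4 had 11.40, 11.78 and 11.73 in siPCARNEQ, against 11.63, 11.77 and 11.72 in siEGFP, a change of -0.07 with a 95% interval of -0.33 to 0.19. ORC5 had 11.87, 11.85 and 11.84 in siPCARNEQ, against 11.91, 12.01 and 11.99 in siEGFP, a change of -0.11 (interval -0.27 to 0.04). The groups overlapped for ORC4 and not for ORC5. With arrays 2 and 3 alone, where p-values may be too small, ORC5 passed as lower (-0.15, adjusted p = 0.0426). In the same setting ORC4 was 0.0092 and did not pass. Chosen after the values were seen, the fall of ORC6 exceeded that of ORC5 by 0.69 within arrays and that of ORC4 by 0.73, with no overlap between groups in either (2-sided exact permutation p = 0.1, the smallest possible with 3 against 3).

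All 6 subunits of the MCM2-7 ring, the motor of the replicative helicase, fell, with a median change of -0.92. MCM6 had 10.73, 11.16 and 11.17 in siPCARNEQ, against 12.59, 12.91 and 12.92 in siEGFP. It fell by 1.79 (SE 0.15, adjusted p = 0.000237), and its intensity in siPCARNEQ was 0.29 of that in siEGFP. MCM7 fell by 1.04 (SE 0.23, adjusted p = 0.0144), with 10.52, 11.31 and 11.36 in siPCARNEQ, against 11.83, 12.26 and 12.24 in siEGFP. MCM2 fell by 1.0 (SE 0.15), MCM3 by 0.83 (SE 0.17), MCM4 by 0.72 (SE 0.14) and MCM5 by 0.63 (SE 0.12), all with no overlap.

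The ring holds each of its subunits once, but RNA rather than protein was measured, and the changes were not equal in size. Each subunit was read from its own probe set. Probe sets of the same gene could differ (MCMBP, -0.71 and -1.65) or lie close (MCM7, -1.04 and -0.92). The part of the probe sets in differences between genes, here and in other complexes, was not tested. Chosen after the values were seen, the change of MCM6 exceeded those of MCM7, MCM2, MCM3, MCM4 and MCM5 by 0.74, 0.79, 0.95, 1.07 and 1.16 within arrays, and in no case did the groups overlap (2-sided exact permutation p = 0.1 for each of the 5, the smallest possible). MCM7 did not pass with siEGFP array 2 or array 3 left out (adjusted p = 0.0599 and 0.0581), and its second probe set fell by 0.92 (SE 0.11). MCM6 fell by 0.72 in a second probe set whose level (5.70 in siPCARNEQ, 6.42 in siEGFP) was below the array median, where signal was not shown to exceed background.

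The other proteins named MCM did not move as a set, with 2 of 4 lower. MCM10, which is not part of the ring and helps to activate the helicase and tether polymerase alpha, had 8.68, 9.37 and 9.35 in siPCARNEQ, against 10.49, 10.83 and 10.88 in siEGFP. It fell by 1.60 (SE 0.20, adjusted p = 0.00121), and its other 2 probe sets fell by 1.48 and 1.27. MCMBP, which binds MCM subunits outside the ring, fell by 0.71 (SE 0.12), and by 1.65 in a dimmer probe set.

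MCM8 and MCM9, which form a separate helicase known from homologous recombination, are the members of the family that did not pass. MCM8 had 9.81, 9.22 and 9.28 in siPCARNEQ, against 9.67, 9.97 and 9.91 in siEGFP. The change was -0.41 (interval -0.80 to -0.02, adjusted p = 0.117), positive in array 1 (0.14) and negative in arrays 2 and 3 (-0.68), and it passed without siPCARNEQ array 1 (-0.59, adjusted p = 0.0058). With arrays 2 and 3 averaged the change of MCM8 was -0.27. MCM9 had 8.04, 8.50 and 8.44 in siPCARNEQ, against 7.60, 7.96 and 7.97 in siEGFP, and was the only member with a positive change (0.48, interval 0.12 to 0.84, adjusted p = 0.0537). With the replicate number as a block the adjusted p of MCM9 was 0.00252. Its probe sets disagreed, since a dimmer one fell by 0.37 (SE 0.07, adjusted p = 0.00919 over probe sets) and the average over its 3 probe sets was -0.0011, so its direction is uncertain.

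CDC45 and the 4 GINS subunits, which join the ring to make it an active helicase, all fell. GINS1 was the member with the largest fall, at rank 47 from the bottom among all genes. It had 9.87, 10.02 and 10.04 in siPCARNEQ, against 11.98, 12.04 and 12.04 in siEGFP, and fell by 2.04 (SE 0.07, adjusted p = 2.51e-05). The spread of the siPCARNEQ arrays was 0.10 (SD, n = 3), far smaller than the difference, and the intensity was 0.243 of that in siEGFP.

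GINS3 fell by 0.90 (SE 0.14), CDC45 by 0.81 (SE 0.15), GINS4 by 0.69 (SE 0.14) and GINS2 by 0.53 (SE 0.13, adjusted p = 0.0215). GINS4 had 10.07, 9.52 and 9.57 in siPCARNEQ, against 10.35, 10.44 and 10.45 in siEGFP, so the difference was smaller in array 1 (-0.28) than in arrays 2 and 3 (-0.90). The other 3 probe sets of GINS4 did not pass (-0.21 to -0.33), and its average over probe sets was -0.37. GINS2 did not pass without siPCARNEQ array 2, siEGFP array 2 or siEGFP array 3 (adjusted p = 0.0519, 0.0859 and 0.0815), and was -0.06 in the probe set left after removal of those able to match several transcripts. The 4 GINS proteins form 1 complex. Chosen after the values were seen, the change of GINS1 exceeded those of GINS2, GINS3 and GINS4 by 1.51, 1.14 and 1.35, again with no overlap between groups (2-sided exact permutation p = 0.1, the smallest possible).

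Both loading factors and their inhibitor fell. CDC6, the loading ATPase, had 9.19, 9.69 and 9.65 in siPCARNEQ, against 10.31, 10.70 and 10.67 in siEGFP, and fell by 1.05 (SE 0.16, adjusted p = 0.00302). CDT1, which brings MCM rings to the origin, had 9.94, 9.66 and 9.75 in siPCARNEQ, against 10.37, 10.52 and 10.49 in siEGFP, and fell by 0.68 (SE 0.09, adjusted p = 0.00172). GMNN encodes geminin, the inhibitor that binds CDT1, and had 10.27, 10.64 and 10.62 in siPCARNEQ, against 12.08, 12.19 and 12.22 in siEGFP. GMNN fell by 1.66 (SE 0.11, adjusted p = 0.000115). Chosen after the values were seen, the fall of GMNN exceeded that of CDT1 by 0.98 within arrays, with no overlap (2-sided exact permutation p = 0.1, the smallest possible). Protein was not measured.

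All 4 firing factors fell, by less than 2-fold each. DBF4, the activating partner of CDC7, had 10.01, 10.61 and 10.54 in siPCARNEQ, against 11.07, 11.25 and 11.32 in siEGFP, and fell by 0.82 (SE 0.16, adjusted p = 0.00856). The kinase CDC7 fell by 0.65 (SE 0.13), and TOPBP1, which helps assemble the active helicase and activates the ATR checkpoint kinase, by 0.55 (SE 0.09). RECQL4, a helicase needed for origin firing, had the smallest fall of the called members, 0.31 (SE 0.08, adjusted p = 0.0228). It did not pass when siPCARNEQ array 2 or 3 or siEGFP array 2 or 3 was left out (adjusted p = 0.0561 to 0.0943).

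Of the fork and checkpoint factors, WDHD1, TIPIN and CLSPN fell and TIMELESS did not pass. WDHD1, the adaptor that links the helicase to polymerase alpha, had 8.05, 8.46 and 8.31 in siPCARNEQ, against 9.14, 9.42 and 9.49 in siEGFP, and fell by 1.08 (SE 0.13, adjusted p = 0.00115). TIPIN fell by 0.62 (SE 0.07, adjusted p = 0.000722) with tight groups. Its partner TIMELESS, with which it protects the fork, had 10.35, 11.07 and 11.05 in siPCARNEQ, against 10.87, 11.34 and 11.31 in siEGFP. That is a change of -0.35 (interval -0.85 to 0.16), where array 1 was lower than its partners in both groups and the groups overlapped. Without siPCARNEQ array 1 the change was -0.11. With the replicate number as a block TIMELESS passed as lower (adjusted p = 0.0185). The difference between the changes of TIPIN and TIMELESS was -0.27 within arrays, with overlapping groups (2-sided exact permutation p = 0.3).

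CLSPN encodes claspin, which relays the checkpoint signal to CHEK1, and fell by 0.53 (SE 0.13, adjusted p = 0.0225). Its siPCARNEQ arrays (6.75, 6.99 and 6.89, against 7.12, 7.54 and 7.55 in siEGFP) lay below the array median of 7.03, so that the size of the fall is uncertain. It did not pass without siPCARNEQ array 1 or 3 or siEGFP array 2 or 3 (adjusted p = 0.05 to 0.0886).

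Among the polymerase genes, 5 of 7 fell, and the 2 that did not pass were POLA1 and POLE, which encode catalytic subunits of polymerases alpha and epsilon. POLA1 had 9.53, 9.79 and 9.81 in siPCARNEQ, against 9.58, 9.81 and 9.79 in siEGFP, a change of -0.02 (interval -0.27 to 0.23). POLE had 8.58, 8.46 and 8.39 in siPCARNEQ, against 8.58, 8.57 and 8.63 in siEGFP, a change of -0.11 (interval -0.29 to 0.06). In both genes the groups overlapped, and the intervals leave out a 2-fold fall.

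Their partners fell. POLA2, the regulatory subunit of polymerase alpha, fell by 0.82 (SE 0.14), and PRIM1, the primase that makes the RNA primer in the same complex, fell by 0.82 (SE 0.15), with 9.37, 9.91 and 9.91 in siPCARNEQ, against 10.42, 10.61 and 10.63 in siEGFP. POLE2, the second subunit of polymerase epsilon, fell by 0.73 (SE 0.09, adjusted p = 0.00124). PRIM2, the other primase subunit, and POLE4 of polymerase epsilon were added from the list of other replication genes after the values were seen. Neither passed, at -0.12 (adjusted p = 0.549) and 0.09 (adjusted p = 0.531), while POLE3 from the same list changed by -2.08. POLD1 and POLD3, the catalytic and an accessory subunit of polymerase delta, fell by 0.47 and 0.43 (SE 0.07 each). Chosen after the values were seen, POLA2 and PRIM1 each fell 0.80 further than POLA1 within arrays, and POLE2 0.62 further than POLE, with no overlap (2-sided exact permutation p = 0.1, the smallest possible). POLA2 rests on its brightest probe set, as its other 2 probe sets changed by -0.09 and 0.01 near the array median. The average over the 3 was -0.30 (adjusted p = 0.0534), and POLA2 was -0.09 after removal of probe sets able to match several transcripts.

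PCNA, the sliding clamp, and the 4 genes of the small RFC subunits, which load it, fell. The large subunit RFC1, from the list of other replication genes and added after the values were seen to complete the complex, did not pass, at -0.39 (SE 0.15, adjusted p = 0.104). RFC5 had 9.58, 10.05 and 10.03 in siPCARNEQ, against 11.08, 11.31 and 11.35 in siEGFP, and fell by 1.36 (SE 0.14, adjusted p = 0.000615). RFC3 fell by 1.13 (SE 0.09, adjusted p = 0.000247), RFC4 by 0.87 (SE 0.13) and RFC2 by 0.73 (SE 0.13). PCNA had 12.91, 13.27 and 13.18 in siPCARNEQ, against 13.38, 13.68 and 13.64 in siEGFP, and fell by 0.45 (SE 0.12, adjusted p = 0.0316). Its groups did not overlap, and it did not pass without siPCARNEQ array 3, siEGFP array 2 or siEGFP array 3 (adjusted p = 0.0648, 0.116 and 0.111).

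**Figure D3:**
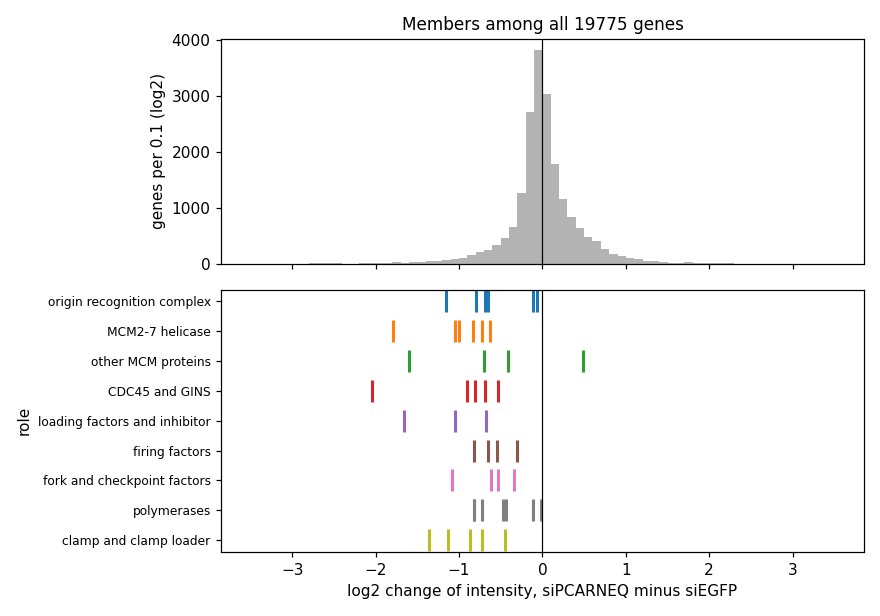
Top, histogram of the log2 change, siPCARNEQ minus siEGFP, over all 19775 genes, in bins of 0.1. Bottom, each member as a tick in the row of its role; every tick but that of MCM9 (0.48) lies left of 0, and the members' median is -0.71.

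Across all 85 single-gene probe sets of the members, 58 fell and 0 rose (adjusted over probe sets), against 8.61% and 9.92% of all probe sets tested, and 27 did not pass. The change was negative in 82 of them. Among the 25 members with over 1 probe set, every probe set fell in 12, such as MCM5, MCM7, MCM10, GINS3, CDC6, CDT1 and WDHD1. RFC5 had a probe set at a similar brightness (10.32 in siPCARNEQ and 10.17 in siEGFP) with a change of 0.15 (SE 0.13), against a fall of 1.43 in the remaining one. Averaged over its probe sets, RFC5 changed by -0.88. The second probe set of ORC2 was at -0.03, and the average of ORC2 was -0.34, while that of GINS2 was -0.27. Which transcripts these probe sets read was not analysed here.

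**Figure D4:**
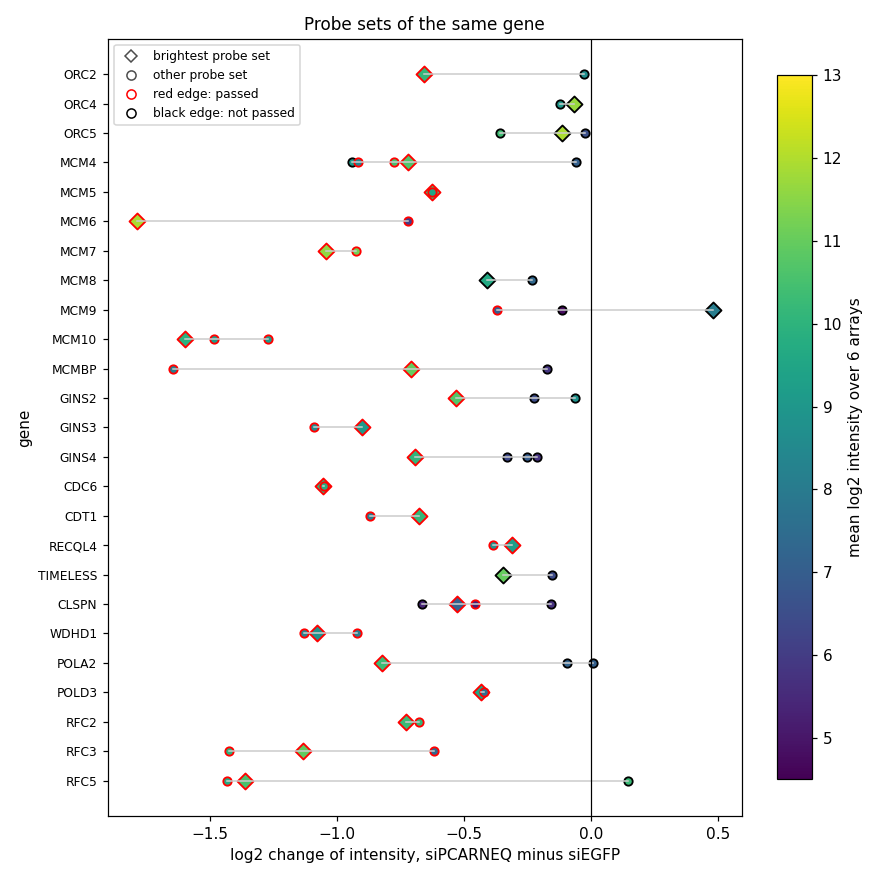
Log2 change, siPCARNEQ minus siEGFP, of every single-gene probe set for the 25 members with over 1. Diamonds are the brightest probe sets used for the gene, a red edge marks an adjusted p below 0.05 over probe sets, and fill colour gives the mean log2 intensity. In MCM9 the brightest probe set lies right of 0 (0.48) and another left of it (-0.37).

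Changes within the replicate numbers had the same sign in most members: 41, 42 and 41 of the 44 were negative in arrays 1, 2 and 3, and 39 in all 3. Between arrays of number 1 the members' median change was -0.75, and it was -0.71 for arrays 2 and 3 together. Array 1 was the lowest of its group in 36 members in siPCARNEQ and in 43 in siEGFP. The part of the RNA integrity difference in these levels was not tested, and the median without siPCARNEQ array 1 was -0.63.

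Other replication genes, a list of 64 with 60 measured, had 37 lower, 2 higher and 21 not passing (median -0.45). Among all genes 12.3% were lower and 15.2% higher (median -0.01). Within the list the largest falls were in POLE3, a histone-fold subunit of polymerase epsilon (-2.08, SE 0.16), and DSCC1, part of an alternative clamp loader (-2.02, SE 0.14). RECQL, a DNA helicase, changed by -1.53 (SE 0.14) and CHEK1, the checkpoint kinase, by -1.28 (SE 0.38, adjusted p = 0.044). Without siPCARNEQ array 1 the change of CHEK1 was -0.81, and averaged over its probe sets it was -0.79. CHEK1 did not pass with any single siEGFP array left out, or with arrays 2 and 3 averaged (adjusted p = 0.129 in the latter). DSCC1 did not pass after removal of probe sets able to match several transcripts (-0.01), and its average over probe sets was -1.02. The 2 that rose were POLD4, the smallest subunit of polymerase delta (0.81, SE 0.09), and RAD17, which loads the checkpoint clamp (0.34, SE 0.07). RAD17 did not pass without siEGFP array 2 or with arrays 2 and 3 averaged (adjusted p = 0.0987 in the latter). Within polymerase delta POLD1, POLD2 (-0.39, adjusted p = 0.0259) and POLD3 fell while POLD4 rose. Within polymerase epsilon POLE2 and POLE3 fell, while POLE (-0.11) and POLE4 (0.09) did not pass.

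Most proliferation markers moved beside the members, with 9 of 11 lower and 0 higher, against 12.3% and 15.2% of all genes. The other 2 did not pass and had positive changes, the larger 0.48. The summed intensity of the 11 was 17637 to 22900 in siPCARNEQ arrays, against 32777 to 40834 in siEGFP arrays. CDK1 fell by 1.78 (SE 0.32), CCNE2 by 1.65 (SE 0.16) and MKI67 by 0.57 (SE 0.15, adjusted p = 0.0258). MKI67 did not pass without siPCARNEQ array 1 or 3 or siEGFP array 2 or 3. Of the 8 E2F genes, 4 fell, among them the repressor E2F7 (-2.98, SE 0.09) and E2F5 (-2.04, SE 0.24), while the activator E2F1 was -0.10 (SE 0.10, adjusted p = 0.496). Averaged over probe sets, E2F7 changed by -1.78 and E2F5 by -1.17. Of 8 genes linked to arrest, CDKN1C rose by 1.72 (0.78 averaged over probe sets) and RBL2 by 0.79, CDKN2A fell by 0.81 and 5 did not pass. Luminal prostate markers rose in 6 of 8 measured, with a summed intensity of 61096 to 64000 in siPCARNEQ, against 38460 to 41992 in siEGFP. The 2 measured immune markers had a summed intensity of 207 to 217 in siPCARNEQ and 205 to 219 in siEGFP. The 3 endothelial markers gave 342 to 373 and 345 to 422. The basal, fibroblast and neuroendocrine lists gave 259.5 to 283, 2208 to 2749 and 864 to 1215 in siPCARNEQ, against 232 to 252, 1558 to 1580 and 676 to 787 in siEGFP. In these 3 lists the median changes were -0.02, -0.14 and 0.04, and the calls were 1 higher of 3 basal markers, 1 lower and 1 higher of 5 fibroblast and smooth muscle markers, and 1 higher of 4 neuroendocrine markers. Intensity has no true 0 on these arrays, so a marker at background cannot be told from one that is absent. The part of these differences in the members' changes was not tested.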

How the data were processed

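The values were probe-set intensity on a linear scale, deposited by the authors after summarisation with RMA, per the submitters' processing notes, from biotin-labelled cRNA of total RNA, per the labels. RMA corrects background and normalizes by quantiles. After sorting, log2 values differed between arrays by no more than 0.0049, so differences in total RNA between arrays cannot be seen. No genome build is named there.

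The deposited intensity was put on a log2 scale without a pseudocount. Of 54675 probe sets, 62 controls were left out, and 41091 were paired with 1 gene, 1801 with several and 11721 with none listed. The brightest single-gene probe set stood for each of 19775 genes. The 6 arrays were fitted with limma 3.58.1 (lmFit, eBayes; R 4.3.3), 2-sided, with Benjamini-Hochberg adjustment over all genes or all probe sets, a threshold of 0.05 and no covariates. Limits called intervals are 95% limits of that fit. Exact permutation tests used SciPy 1.17.1 under Python 3.11.15, and figures matplotlib 3.10.9. The number of arrays limits the precision.

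The members, the other lists and the settings were chosen with earlier results of these data known. All 44 members are named, with the 4 largest falls and up to 4 largest rises that passed among other replication genes, and markers quoted by list. RFC1, PRIM2, POLE4 and POLD2 were added from the other replication genes after the values were seen. Lists came from general knowledge, and list genes without a single-gene probe set were not analysed here. TOP2A stands in both the other replication list and the proliferation list.

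Both groups carry replicate numbers 1 to 3. Deviations from the group means correlated at 0.47, 0.30 and 0.34 for same-numbered arrays. Each exceeded 0.1, which met the criterion for pairing by number, though no label names a shared day or batch. Arrays 2 and 3 correlated across numbers as well (0.37 and 0.24), of which 0.37 lay above the 0.30 of the pair numbered 2. The reported fit used no pairing, and the block was an alternative.

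Alternatives were a replicate block, leaving out dim genes, other scaling, averaging probe sets, leaving out probe sets that can match several transcripts, leaving out each array, averaging arrays 2 and 3 without and with the array set as a block, using arrays 2 and 3 alone, other eBayes settings and stricter calls.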

Additional observations from a re-analysis of the deposited data

How the results depend on the processing

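Of 738 values of single members under 17 alternatives, 678 kept their direction and side of the threshold, 43 lost the call, 11 gained one and 6 changed sign, and 16 of the 37 lower members passed under every alternative that measured them. As reported, 37 members were lower and 0 higher, with 37 and 2 for other replication genes. Averaging arrays 2 and 3, which leaves fewer samples, gave 16 members lower and, among other replication genes, 19 lower and 1 higher; with the array set also as a block, 37 members were lower and 1 higher. Under the replicate block, 38 members were lower and 1 higher, the additions being TIMELESS and MCM9, and 39 and 3 other replication genes. MCM9 was also the 1 higher member when genes below the median level were left out, in arrays 2 and 3 alone and without siPCARNEQ array 1. Arrays 2 and 3 alone gave 40 members lower, and 47 lower and 5 higher other replication genes. Removing probe sets able to match several transcripts left 34 members, 27 of them lower, a median of -0.67, and 23 lower and 1 higher other replication genes. An adjusted p below 0.01 gave 30 members, and 22 lower and 1 higher others, and a 1.5-fold minimum gave 30, and 26 and 1. Leaving out each array in turn gave 31 to 37 members lower and 0 to 1 higher, a median of -0.79 to -0.63, and 24 to 37 lower and 1 to 3 higher others (24 without siEGFP array 2 or 3). MCM9 changed sign when probe sets were averaged (-0.0011). ORC4 was 0.0092 in arrays 2 and 3 alone, and -0.14 to 0.050 with an array left out, while POLA1 was -0.095 to 0.068, with positive values without siPCARNEQ array 1 (0.068), siEGFP array 2 (0.021) or siEGFP array 3 (0.0085). Among all genes the share lower was 12.3% as reported, 15.3% under the replicate block, 5.26% with arrays 2 and 3 averaged and 11.4% with the array set also as a block, 18.8% in arrays 2 and 3 alone, 19.4% with genes below the median level left out, 11.2% after removal of probe sets able to match several transcripts, 8.38% to 14.5% with an array left out, 7.28% at an adjusted p below 0.01 and 5.75% with a 1.5-fold minimum. The causes were not tested. Signal near the array median limits CLSPN.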
